A study of Homo sapiens with 6 samples.

Results

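The MYC, MAX and MXD network was followed in MM.1R, a line of human multiple myeloma cells, on 6 Affymetrix PrimeView arrays. The members were the genes MYC, MYCN and MYCL, their common partner MAX, and the antagonists MXD1, MXD3, MXD4, MXI1, MNT and MGA. They were chosen by name, 10 of 17534 genes measured, and read by the 41 of 47481 probe sets whose annotation names 1 of these genes alone. In the control group, 3 arrays, the cells had been infected with shCtrl, a control short hairpin vector. In the other group, 3 arrays, they had been given Epirubicin Hydrochloride, an anthracycline that poisons topoisomerase II, in order to inhibit their proliferation. Only the control arrays are labelled with the vector, so its effect and that of the drug cannot be told apart. Neither a dose nor a time is given in the sources. It is also not stated whether the arrays within a group are separate cultures, so p-values reflect the spread among these 6 samples, possibly technical spread alone. All cells are 1 line, and in bulk RNA fewer cells of a type and less RNA per cell cannot be told apart.

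MYC proteins bind DNA as dimers with MAX at the E-box and recruit factors that activate transcription, in particular of genes for ribosomes, nucleotides and growth. MXD proteins, MXI1 and MNT compete for MAX, bind the same element and bring in the SIN3 and histone deacetylase corepressor, and MGA joins MAX in a Polycomb-type repressor complex. Myeloma cells often carry MYC rearrangements and depend on MYC. MXD1 and MXD4 are linked to cells that leave the cycle, and MXD3 to proliferating cells.

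The E-box these dimers bind best is CACGTG, which reads the same on both strands. It was searched in the 250 bases before each start in the RefSeq promoter table (GRCh38.p14), where 9 of the 10 members had a window. MYC itself had none, so its promoter was not searched. The members with a match were MXD4 and MNT. Their stretches are shown because they are E-boxes in the promoters of the network's own genes, and 3 target genes described further on are shown beside them. Each runs 5′ to 3′ on the gene's strand with the CACGTG in capitals.
MXD4, chr4:2262312-2262359, minus strand: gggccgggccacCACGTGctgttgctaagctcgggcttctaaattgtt
MNT, chr17:2401218-2401283, minus strand: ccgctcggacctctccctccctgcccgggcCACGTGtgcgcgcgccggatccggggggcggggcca
PLK1, chr16:23678661-23678726, plus strand: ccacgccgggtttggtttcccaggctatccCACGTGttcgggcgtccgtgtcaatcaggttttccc
HK2, chr2:74834946-74835011, plus strand: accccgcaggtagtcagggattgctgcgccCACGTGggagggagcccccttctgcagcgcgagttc
RCC1, chr1:28518006-28518071, plus strand: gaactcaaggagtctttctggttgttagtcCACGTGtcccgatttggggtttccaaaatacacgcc
The first base of the motif lies 238 bases before the start in MXD4 and 193 in MNT. HK2 had 2 matches in the bases searched, of which the first is shown. Among all 14155 measured genes with a window, 9.81% had a match. A match is a description of letters and does not show binding.

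With epirubicin MYC was 1.44-fold lower and MXD1 1.47-fold higher, while MYCN, MYCL, MNT and MGA lay within overlapping ranges on the probe sets used. A gene was called when its adjusted p was under 0.05 in limma over all genes and its fold change at least 1.3, and 1 of the 10 members was called higher and 1 lower. Over all genes 4.36% were called higher and 2.14% lower, and 6.51% in either direction, so each direction of the members rests on a single gene. At any fold, 5 of 10 members had an adjusted p under 0.05, 3 higher and 2 lower, where 29.1% of all genes did, 15.6% higher and 13.5% lower. The groups' arrays did not overlap in 6 of 10 members, 3 higher and 3 lower, where they did not in 43.8% of all genes, 23.8% higher and 20.1% lower. The median log2 difference of the members, 0.03, was near that of all genes, 0.02.

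MYC, the growth-driving transcription factor itself, read 11.58, 11.57 and 11.61 on the log2 scale in the control arrays and 11.07, 11.03 and 11.10 in the epirubicin arrays. Every epirubicin array lay below every control array, with a spread within each group far smaller than the gap. The means were 11.59 ± 0.02 and 11.07 ± 0.03 (SD, n = 3), a log2 difference of -0.52 (SE 0.03, 95% confidence interval, CI, -0.60 to -0.44, limma adjusted p = 0.000123). MYC has 1 probe set that names it alone, so no other probe set bears on this value. The 5 genes whose 6 log2 values, less their control mean, lay closest to those of MYC were HSPH1, AMD1, DEPDC1B, ACACA and HMGB3. Their root mean square distance from MYC ran from 0.019 to 0.026. They were picked as the smallest distances among the 9842 genes compared, so their closeness follows from the choice. A link between them and MYC was not tested.

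MYCN and MYCL, the paralogues best known from neuroblastoma and small cell lung cancer, lay at low values. MYCN read 4.86, 5.02 and 4.97 in control arrays and 4.92, 4.94 and 5.14 with epirubicin, and MYCL 5.29, 5.41 and 5.37 against 5.43, 5.46 and 5.40. In both genes the groups overlapped on the probe set used. The log2 difference was 0.05 for MYCN (CI -0.13 to 0.22, limma adjusted p = 0.691) and 0.07 for MYCL (CI -0.03 to 0.17, adjusted p = 0.256). The sign of the MYCN difference was not stable: it turned to -0.09 when the probe set brightest in control arrays was taken. All 4 MYCL probe sets had a difference above 0, from 0.07 to 0.22, and 0 passed an adjusted p of 0.05 over all probe sets. In 2 of the 4 MYCL probe sets the groups did not overlap, with epirubicin higher, where 41.2% of all probe sets did not overlap. Their mean differed by 0.15 (limma adjusted p = 0.0489 over all genes), under the fold threshold. Both genes lay below the median of all values, 5.54, and without detection calls it was not tested whether they were above background.

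MAX, the partner through which MYC proteins bind DNA and for which the antagonists compete, read 8.43, 8.41 and 8.45 in control arrays and 8.36, 8.31 and 8.26 with epirubicin. The groups did not overlap, but the gap was small. The log2 difference was -0.12 (SE 0.04, CI -0.21 to -0.03, limma adjusted p = 0.0585), and MAX was not called. It has 12 probe sets, the most of any member, and 11 of them had a difference below 0. In 6 of the 12 the groups did not overlap, each with epirubicin lower, where 41.2% of all probe sets did not overlap. Of the 12, 2 had an adjusted p under 0.05, none of them at 1.3-fold.

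**Figure D1:**
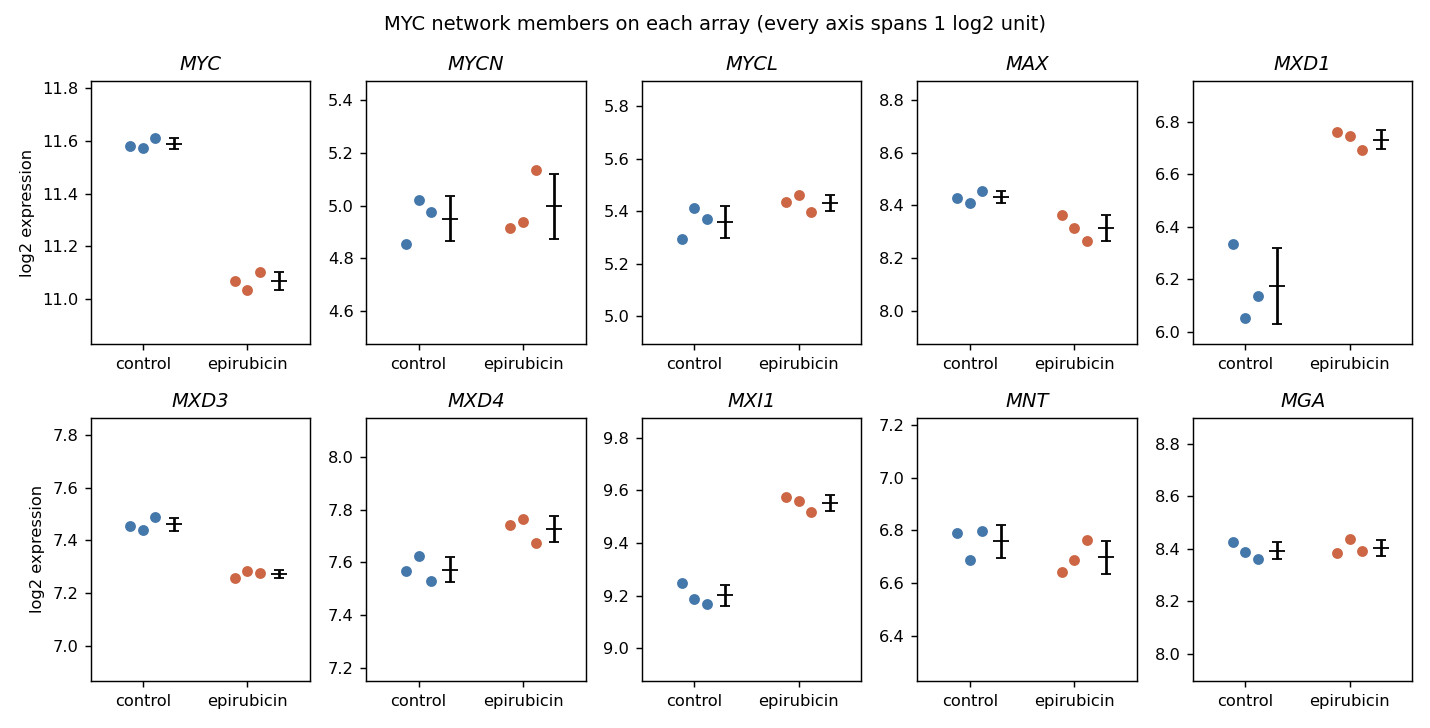
Log2 expression (vertical axis, every panel spanning 1 log2 unit) of the 10 members in the 3 control (blue) and 3 epirubicin (orange) arrays, 1 point per array, with the group mean and SD in black. MYC drops from 11.59 to 11.07 and MXD1 climbs from 6.18 to 6.73, MXI1 and MXD4 sit higher and MXD3 and MAX lower with epirubicin without overlap, and MYCN, MYCL, MNT and MGA overlap.

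MXD1, the first described MXD antagonist, read 6.34, 6.05 and 6.14 in control arrays and 6.76, 6.74 and 6.69 with epirubicin. All epirubicin arrays lay above all control arrays, and the control arrays were the more spread (SD 0.14 against 0.04). The log2 difference was 0.56 (SE 0.07, CI 0.38 to 0.73, limma adjusted p = 0.0019). Its other probe set, at a mean of 2.82 and so dimmer than the lower quartiles of the arrays (3.84 to 3.90), differed by 0.06 and was not called. As the mean of both probe sets MXD1 differed by 0.31 (limma adjusted p = 0.0054), short of the fold threshold, so the call rests on 1 probe set.

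MXI1, an antagonist also called MXD2, read 9.25, 9.19 and 9.17 in control arrays and 9.58, 9.56 and 9.52 with epirubicin. The groups were well apart. The difference was 0.35 (SE 0.04, CI 0.26 to 0.44, limma adjusted p = 0.000766), a 1.27-fold difference that passed the p threshold and missed the fold threshold. Of its 5 probe sets 4 had a difference above 0 and 1, at -0.11, below it. In 3 of the 5 the groups did not overlap, where 41.2% of all probe sets did not. Averaged over its 5 probe sets, the difference was 0.16 (limma adjusted p = 0.0516).

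MXD4 read 7.57, 7.62 and 7.53 in control arrays and 7.74, 7.76 and 7.67 with epirubicin. The groups did not overlap. The difference was 0.15 (SE 0.04, limma adjusted p = 0.0337), under the fold threshold. All 5 probe sets differed upward, in 4 of them without overlap, and these 4 had an adjusted p under 0.05. The probe set with the largest difference read 6.66, 6.51 and 6.60 against 6.95, 7.02 and 7.03. It was called higher, at 0.41 (SE 0.05, limma adjusted p = 0.00183 over all probe sets). Over all probe sets 3.65% were called higher and 2.62% lower, or 6.27% in either direction. Among the 41 member probe sets 2 were called higher, those of MXD1 and MXD4, and 1 lower, that of MYC, while the groups did not overlap in 18, against 41.2% of all probe sets. The MXD4 call is close to the threshold: with arrays shifted to the same median, or without control replicate 2, 1 member probe set was called higher.

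MXD3 had a difference of the opposite sign. It read 7.46, 7.44 and 7.49 in control arrays and 7.26, 7.28 and 7.28 with epirubicin, without overlap. The difference was -0.19 (SE 0.03, CI -0.26 to -0.11, limma adjusted p = 0.00475), under the fold threshold. As the mean of its 3 probe sets MXD3 differed by -0.06 (limma adjusted p = 0.327). Its other probe sets differed by -0.06 and 0.06 with overlapping groups. A further 2 probe sets name both MXD3 and its genomic neighbour RAB24 and are no members. They read higher with epirubicin, by 0.35 and 0.37 on the log2 scale, opposite in sign to the probe set that names MXD3 alone, and which of the 2 genes they follow was not tested.

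MNT and MGA, the broadly expressed repressors of the network, stayed within overlapping ranges. MNT read 6.79, 6.69 and 6.80 in control arrays and 6.64, 6.69 and 6.77 with epirubicin, a difference of -0.06 (CI -0.18 to 0.06, limma adjusted p = 0.417). Its other probe set differed by 0.11, so the sign of MNT was not settled. MGA read 8.43, 8.39 and 8.36 against 8.38, 8.44 and 8.39, a difference of 0.01 (CI -0.07 to 0.10, limma adjusted p = 0.837). Its sign turned with arrays shifted to the same median (-0.02). The confidence intervals of both genes, like those of MYCN and MYCL, lay inside a 1.3-fold change (0.38 on the log2 scale) in either direction.

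**Figure D2:**
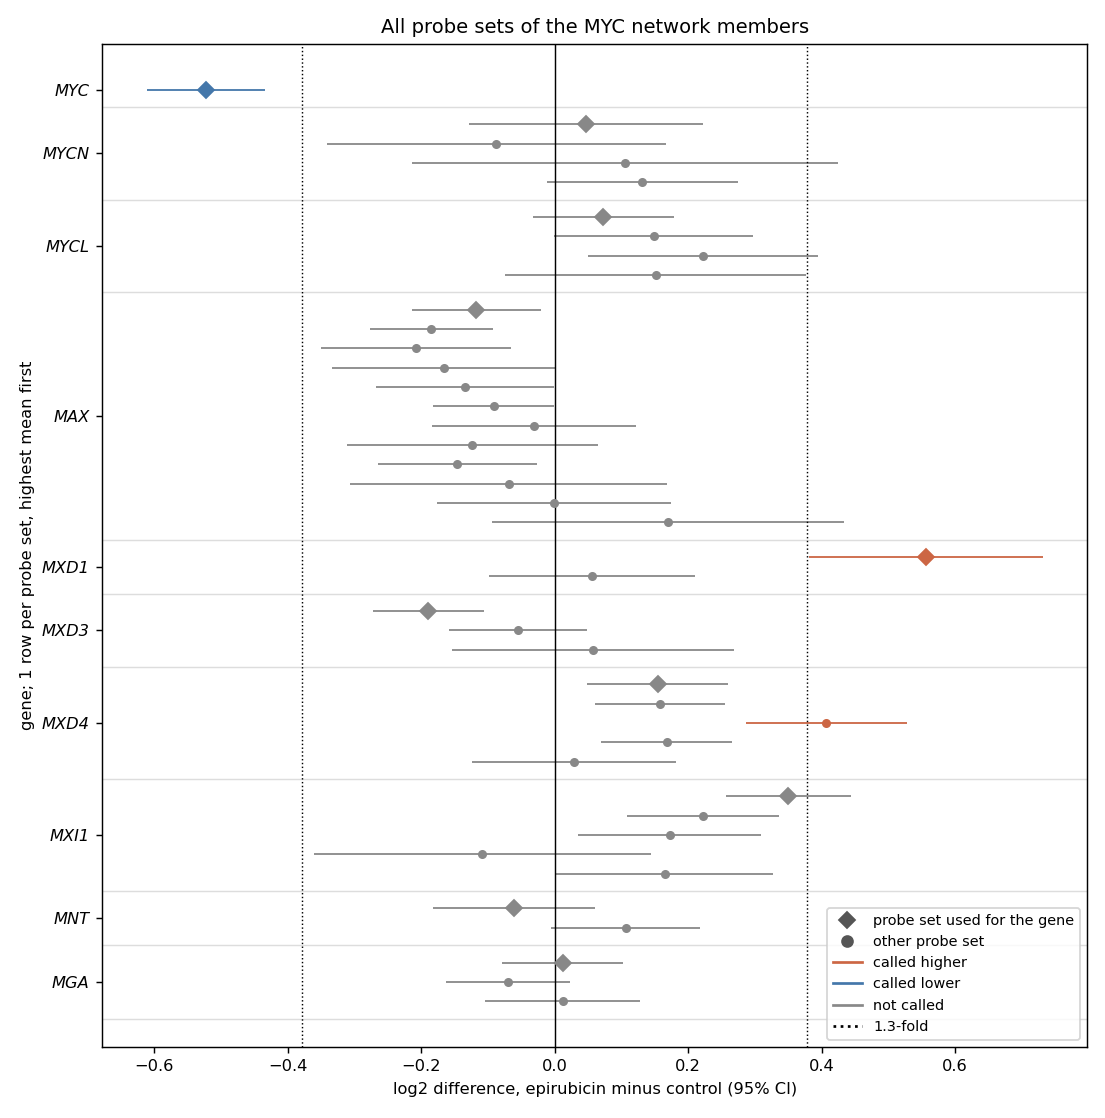
Log2 difference, epirubicin minus control, of all 41 member probe sets (horizontal axis, with 95% confidence intervals), grouped by gene with the highest mean first. Diamonds are the probe sets used for the gene, dotted lines mark 1.3-fold, and colours mark the 3 probe sets that were called; 11 of 12 MAX probe sets lie below 0 and all 5 MXD4 probe sets above it.

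The MLX branch, in which MLX pairs with the glucose sensors MLXIP (MondoA) and MLXIPL (ChREBP), was read by 4 of 5 listed genes. MLX read 8.81, 8.83 and 8.84 against 8.83, 8.81 and 8.85 (difference 0.00, CI -0.07 to 0.07, limma adjusted p = 0.988), and its sign turned with arrays shifted to the same median. MLXIP differed by -0.22 without overlap (SE 0.04, limma adjusted p = 0.00443), under the fold threshold. As the mean of its 4 probe sets the MLXIP difference was -0.06. MLXIPL differed by -0.01, with overlapping groups (limma adjusted p = 0.966). ARRDC4, an arrestin-related gene that MondoA induces, read 4.96, 4.97 and 4.99 against 4.38, 4.36 and 4.46, a difference of -0.57 (SE 0.04, limma adjusted p = 0.00014). It was called on 1 of 3 probe sets. When any 1 control array was left out, another of its probe sets became the brightest and the difference was -0.12 to -0.11, not called.

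Genes of the network's repressor complexes were not called. Of 15 measured genes of the SIN3 and HDAC corepressor 0 were called in either direction in limma, where 6.51% of all genes were. In a list this short, 0 calls is near that share. An unadjusted p under 0.05 was found in 1 upward and 5 downward. Over all genes, an unadjusted p under 0.05 was found in 21.5% upward and 17.8% downward, the shares against which this and the later counts at that threshold are to be read. The largest difference was that of SKI, a corepressor that binds the complex, at 0.22 (SE 0.04, limma adjusted p = 0.00993). As the mean of its 5 probe sets SKI differed by 0.09 (limma adjusted p = 0.181), and without control replicate 1 the limma adjusted p was 0.144. Of 11 genes of the MGA complex 0 were called, again near the 6.51% of all genes for a list this short. In limma 1 differed upward and 6 downward at an unadjusted p under 0.05, where 21.5% upward and 17.8% downward is the share of all genes. CBX3, a heterochromatin protein, had the largest difference, -0.33 (SE 0.04, limma adjusted p = 0.0013), and also stands among the MYC targets below. The medians of the lists were -0.09 and -0.11.

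Of 15 MYC cofactors 2 were lower and 0 higher, against 2.14% of all genes lower. They were RUVBL1 and RUVBL2, the AAA+ ATPases of the TIP60 and INO80 complexes. RUVBL1 read 9.53, 9.47 and 9.47 against 8.93, 9.02 and 8.87, a fall of 0.55 on the log2 scale (SE 0.05, limma adjusted p = 0.000391) on all 3 of its probe sets. RUVBL2 fell by 0.41 (SE 0.03, limma adjusted p = 0.000224), on 3 of 4 probe sets, and by 0.32 as their mean, which was not called. At an unadjusted p under 0.05, 1 cofactor differed upward and 8 downward in limma, against 21.5% upward and 17.8% downward of all genes.

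Genes that set the stability of the MYC protein included 3 lower and 0 higher of 20, where 2.14% of all genes were lower and 4.36% higher. All 3 are also genes of the cell cycle, and PLK1 is counted again among the MYC targets below. PLK1 and AURKA, mitotic kinases that protect MYC-family proteins from degradation, were lower, with log2 differences of -1.13 (SE 0.07, all 3 probe sets) and -1.06 (SE 0.04, its only probe set). SKP2, a ubiquitin ligase subunit that acts on MYC and on p27, fell by 0.61 (SE 0.06), on 1 of 2 probe sets, and by 0.37 as their mean, which was not called. In limma SKP2 had the highest adjusted p of the 3, 0.000529. At an unadjusted p under 0.05, 1 gene of the list differed upward and 14 downward, where all genes gave 21.5% upward and 17.8% downward.

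Among 13 regulators of MYC transcription 2 were higher and 2 lower, against 4.36% and 2.14% of all genes. The list was chosen with it known that IRF4 was lower. IRF4, which binds the MYC locus in myeloma and sustains its transcription, read 11.27, 11.22 and 11.24 against 10.75, 10.76 and 10.75, a fall of 0.49 on the log2 scale (SE 0.03, limma adjusted p = 0.000114) on both of its probe sets. FUBP1, which binds the far upstream element of MYC, fell by 0.45 (SE 0.05, limma adjusted p = 0.000793; 4 of 5 probe sets), and its mean over probe sets, -0.33, was not called. STAT3, a cytokine-activated transcription factor, rose by 0.55 (SE 0.04, limma adjusted p = 0.000245; 2 of 3 probe sets). The BET bromodomain gene BRD3 rose by 0.39 (SE 0.04, limma adjusted p = 0.000957; 2 of 4 probe sets). BRD3 lay next to the fold threshold. It was not called as the mean of its probe sets (0.29), with arrays shifted to the same median (0.36), or without control replicate 2 (0.36) or epirubicin replicate 1 (0.38).

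Of the 80 measured MYC targets in both lists 22 were lower and 0 higher, against 2.14% and 4.36% of all genes. Both lists were chosen with it known that MYC and nucleolar genes were lower, so their counts are no independent test. Of 52 measured targets of growth and the nucleolus 15 were lower and 0 higher, and 49 of the 52 had a difference below 0, where 7761 of all 17534 genes did. Their median was -0.30, against 0.02 over all genes. Of the genes with a mean above the median of all values, where 51 of these targets lie, 3.33% were called lower and 6.00% higher. At an unadjusted p under 0.05 in limma, 45 targets differed downward and 1 upward, where 17.8% of all genes differed downward and 21.5% upward. The largest fall after that of PLK1 was that of NOP16, a nucleolar protein of large subunit assembly. It read 9.83, 9.85 and 9.83 against 9.17, 9.23 and 9.20, and was lower by a log2 difference of -0.64 (SE 0.03, limma adjusted p = 5.38e-05), called on 2 of 3 probe sets. HK2, which encodes hexokinase 2, read 7.37, 7.37 and 7.39 against 6.76, 6.82 and 6.76 and fell by 0.59 (SE 0.03), on 1 of 2 probe sets. Its mean over both, -0.32, was not called. MRTO4, a factor of ribosome assembly, read 8.86, 8.85 and 8.86 against 8.22, 8.30 and 8.28 and fell by 0.59 (SE 0.03), on both probe sets. In all 3 genes the groups were far apart. The 3 targets with a difference above 0, which were picked after seeing their values, were SUPV3L1 (0.19), MAP3K6 (0.12) and SLC29A2 (0.08), none of them called.

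Of 28 measured MYC targets of metabolism and the cell cycle 7 were lower and 0 higher, against 2.14% and 4.36% of all genes, with a median of -0.22 against 0.02. At an unadjusted p under 0.05 in limma, 19 differed downward and 0 upward, against 17.8% and 21.5% of all genes. POLR3G, a subunit of RNA polymerase III, read 5.85, 5.84 and 5.86 against 5.11, 5.22 and 5.21, a log2 difference of -0.67 (SE 0.04), called on 1 of 2 probe sets. BOP1, a factor of ribosomal RNA processing, had group means of 9.56 ± 0.01 and 8.99 ± 0.01 (SD, n = 3) and fell by 0.57 (SE 0.03) on its only probe set. The translation initiation helicase gene EIF4A1 fell by 0.55 (SE 0.04; 1 of 4 probe sets) and RCC1, the exchange factor of the GTPase Ran, by 0.49 (SE 0.04; 1 of 2). RCC1 had the highest limma adjusted p of the 4, 0.000266. As means over their probe sets POLR3G, EIF4A1 and RCC1 differed by -0.44, -0.38 and -0.43, and were still called.

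Of 8 genes that MYC represses together with MIZ1, 3 were higher and 0 lower, where 4.36% of all genes were called higher. They were CDKN1A, which encodes p21, at 10.08, 10.06 and 10.08 against 11.96, 11.96 and 11.94 (difference 1.88, SE 0.03), GADD45A, a stress-induced arrest gene, at 9.95, 9.93 and 9.92 against 11.31, 11.35 and 11.33 (2.63-fold higher), and CDKN1C, which encodes p57, at 6.52, 6.51 and 6.45 against 7.23, 7.16 and 7.19 (0.70, SE 0.04). The adjusted p in limma was at most 6.02e-05. CDKN1A and GADD45A are also textbook targets of p53. That CDKN1A was higher was known when the list was chosen. The list's median was 0.06, near that of all genes, and the other 5 genes were not called. At an unadjusted p under 0.05 in limma, 4 genes differed upward and 0 downward, beside 21.5% upward and 17.8% downward among all genes.

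**Figure D3:**
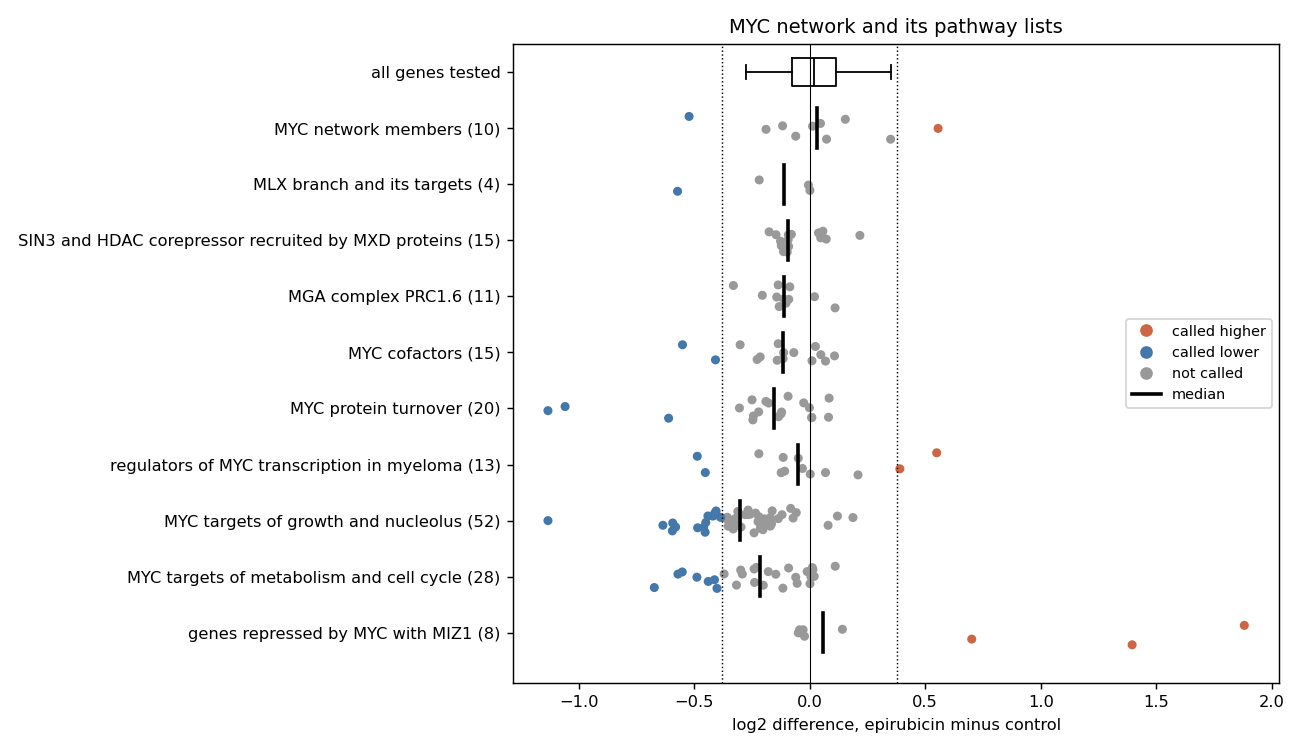
Log2 difference, epirubicin minus control (horizontal axis), of every measured gene of each list, 1 point per gene with the list's median as a black bar; the box at the top spans the quartiles of all 17534 genes with whiskers at the 5th and 95th percentiles. The 52 targets of growth and the nucleolus have a median of -0.30 and 15 called genes, all lower, while the network members scatter around 0.03.

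Of the 66 measured MYC targets with a promoter window, 21 held CACGTG, or 31.8%, against 9.81% of all measured genes with a window. Targets are often recognised by this motif, so the higher share is no finding of these arrays. Of the 21 with a match 9 were lower, and of the 45 without one 10, with medians of -0.29 and -0.27. Over all measured genes 2.66% of those with a match and 2.19% of those without one were lower. The E-boxes printed above belong to PLK1, HK2 and RCC1, the named targets with a match, and to MXD4 and MNT, neither of which was called on the probe set used.

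All 9 measured plasma cell markers had a mean over the 6 arrays above the median of all values, where 9935 of all 17534 genes did. CD38 read 5.25 on average with epirubicin, under that median of 5.54. Of the 9, 2 were called lower with epirubicin, IRF4 and CD38, against 2.14% of all genes. At an unadjusted p under 0.05 in limma, 4 of the 9 differed downward and 1, SLAMF7, upward (0.23). Among all genes 17.8% differed downward and 21.5% upward at that threshold. Markers of myeloid cells differed between the groups in part. Of 9, 3 were called higher (ITGAM, CD68 and S100A9), against 4.36% of all genes. The sum of the 9 log2 values ran from 35.02 to 35.14 in control and from 40.05 to 40.68 in epirubicin arrays. Most of that gap came from ITGAM alone, with a log2 difference of 3.75, and the median difference of the 9 was 0.13. In control arrays 5 of the 9, ITGAM, CD14, LYZ, S100A8 and FCGR3A, had means under the lowest of the arrays' lower quartiles. No value on these arrays is 0, and the part of these markers in the network's differences was not tested. Of 7 T and NK cell, 3 B cell and 6 stromal markers 0 were called in limma, where 6.51% of all genes were. An unadjusted p under 0.05 was found in 2, 2 and 1 of them, all upward, where 21.5% of all genes differed upward.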

How the data were processed

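The values were the authors' deposited log2 expression values, 1 per probe set and array, on 3 control and 3 epirubicin arrays. Their range, 1.41 to 13.73, was taken to be a log2 scale. Per the submitters' processing notes the affy package was used. Its version, the background correction, the normalization and the probe summary are not stated there. No further normalization was applied (array medians 5.52 to 5.57). A normalization before deposit would remove a change in total RNA, so a difference is against the other transcripts. Scanner files and scan dates were not used here. Precision is limited by having 6 arrays.

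Gene names came from the platform's annotation, with symbols updated through Entrez numbers against RefSeq (GRCh38.p14): 43954 probe sets with 1 symbol matched, 1558 had several symbols and 1947 none. Each gene was read by its probe set with the highest mean. The test was limma 3.58.1 (lmFit, eBayes, R 4.3.3) between the 2 groups, with no covariate and with Benjamini-Hochberg adjustment over 17534 genes, or 47481 probe sets where stated. Calls used the thresholds of the series' design text, 1.3-fold and an adjusted p of 0.05. The script was tested on simulated data. The mean of a gene's probe sets, other normalizations, filters, fold thresholds, a replicate block and leaving out each array were the alternatives.

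The members, the pathway lists, the tests and the naming rule were chosen with earlier results of these data known, among them that MYC, IRF4 and nucleolar genes were lower and CDKN1A higher. The rule names all members, up to 4 called genes per list and direction with groups that do not overlap, or a list's largest difference where it has no called gene, the 5 genes closest to MYC, and IRF4, CDKN1A and MLX; 1 further preset gene is not analysed here. Promoters came from the RefSeq table, of which 6.34% of the 35116 windows held CACGTG in the 250 bases searched.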

Additional observations from a re-analysis of the deposited data

How the results depend on the processing

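Counts moved mainly with the fold threshold. With none, 2744 genes were higher and 2362 lower, with 3 members higher and 2 lower and 7 and 4 member probe sets. At 1.5-fold 320 genes were higher and 101 lower, and 0 members and 0 member probe sets in either direction. Called genes per list went, with no fold threshold, to 2 in the MLX branch, 5 in the SIN3 list, 3 in the MGA complex, 6 among cofactors, 12 in MYC turnover, and 45 and 17 in the target lists. At 1.5-fold they went to 0 in the MLX branch, the cofactors and the regulators of MYC transcription, and to 4 and 1 in the target lists. With the mean of a gene's probe sets 0 members were higher, and the MLX branch had 0 calls, the cofactors 1 and the regulators 2. Restricting to genes above the median of all values left 0 calls in the MLX branch, as the test leaves ARRDC4 out. With arrays shifted to the same median 1 member probe set was higher. The cause of these moves, beyond the thresholds themselves, was not tested.

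Leaving out each array in turn gave 717 to 803 genes higher and 366 to 405 lower, 1 member in each direction, 1 to 2 member probe sets higher, and 0 to 1 calls in the MLX branch. MYC lay between -0.54 and -0.51 and MXD1 between 0.49 and 0.64, both called each time. Same-numbered arrays of the groups did not deviate together (correlations of deviations from the group means -0.033, 0.017 and 0.001), so the numbers were not taken as pairs. With the replicate number as a block 755 genes were higher and 372 lower, with the same member counts, and the block changed no call count by over 1.5 times.

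Signs turned in 4 genes, none of them called. MYCN was -0.088 with the probe set brightest in control arrays and ran from -0.091 to 0.087 without single arrays. MNT was 0.023 as the mean of its probe sets. MGA was -0.015 as that mean and -0.020 with arrays shifted to the same median, and ran from -0.0053 to 0.029 without single arrays. MLX was -0.051 and -0.032 under the same alternatives and ran from -0.0084 to 0.0088 without single arrays. The adjusted p of MXD4 ran from 0.0359 to 0.104 and that of MAX from 0.0486 to 0.158 without single arrays, so neither held to 1 side of 0.05. As the mean of its probe sets MXD4 differed by 0.18 (limma adjusted p = 0.00371) and MAX by -0.09 (limma adjusted p = 0.0362). Neither was called on that mean.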

Other observations

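PAX5, a B cell transcription factor that plasma cells normally silence, read 9.75 to 9.97 over the 6 arrays on the brightest of its 10 probe sets. On the other 9 the means ran from 3.09 to 5.67. PAX5 was chosen after its values were seen, and it was not called in limma on any of the 10.

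Within the list of MYC targets of metabolism and the cell cycle, CCND2, E2F1, E2F2, AHCY, TFRC and SHMT1 had log2 differences close to 0, at 0.019, 0.014, -0.011, 0.011, 0.0052 and 0.0011. They were chosen after their values were seen. On the probe sets used, their 95% confidence intervals in limma lay inside 1.3-fold in both directions. As means over each gene's probe sets the differences were -0.050, 0.014, -0.097, -0.0033, -0.12 and 0.015 in the same order.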
